A study of Homo sapiens with 8 samples.

Results

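The genes described here build actin filaments, bind them or belong to the serum response factor (SRF) programme that controls many of them. They are ACTB, ACTG1, VCL, TAGLN, TAGLN2, CNN2, MYL9, TPM1, TPM2 and SRF, a group named with earlier results of these data known, and those with a row in the table of expression values were taken. A row was found for 9 of the 10 genes, among 14526 genes in all. MYL9, a regulatory myosin light chain, had none. The question was how these genes differed between untreated cells and cells given sodium benzoate (SB), and how steady each one was between libraries. The RT-qPCR of the study was scaled to a gene that it names ACTIN, taken here as ACTB.

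RNA-seq was done on total RNA from cultured human cells labelled HepG2, a line derived from a liver tumour. The 4 control replicates received no SB, and the 4 SB-treated replicates were kept with 10 mM SB, a food preservative and the salt of benzoic acid, for 24 h. Both groups grew in the same serum-containing medium. The series calls the replicates biological, but the sample labels do not say that they came from separate cultures, so p-values measure the spread between these libraries. Library sizes recovered from the values were 44518904, 40653639, 37011232 and 42262359 reads in control replicates 1 to 4. In SB-treated replicates 1 to 4 they were 37181843, 38296067, 40664065 and 44902590 reads. Levels are in RPKM (reads scaled to the length of the gene and the size of the library), so levels of different genes can be compared per length. In bulk RNA, a change in the share of cells of some kind and a change of RNA per cell cannot be told apart.

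The cell line label was checked against 19 genes that mark hepatocytes. Of these, 18 had no row, among them ALB, AFP, APOA1, APOB, TTR, SERPINA1 and HNF4A. TF, transferrin, alone had a row and averaged 0.286 RPKM over the 8 libraries. It was at 0.210, 0.191, 0.201 and 0.167 RPKM in control replicates 1 to 4, and at 0.485, 0.378, 0.339 and 0.316 RPKM in SB-treated replicates 1 to 4. The genes with a row held at least 99.94% of the recovered size of each library, so no gene without one was abundant. These values go against the label, which is therefore used here only as a name. Of 8 genes that mark smooth muscle, 7 had rows and SMTN was the most abundant, at 8.93 RPKM on average, while ACTG2 had none. Their sum was 13.9, 15.6, 15.6 and 14.9 RPKM in the control replicates and 17.8, 19.1, 17.6 and 18.5 RPKM in the SB-treated replicates. Of 9 fibroblast markers, 4 had rows, COL1A1 leading with 4.48 RPKM, and COL1A2, DCN, PDGFRB, THY1 and FAP had none. That sum was 6.63, 8.85, 8.56 and 8.97 RPKM in the control replicates and 6.98, 6.89, 6.62 and 6.94 RPKM in the SB-treated replicates. Of these 4 genes 1 was higher (LUM, log2 fold change 0.26) and 1 lower (COL3A1, -0.48) (limma; against 33% and 32.6% of all genes). Without control replicate 1, 1 was higher and 2 lower (against 37.6% and 37.9% of all genes). TF and the smooth muscle sum were higher in every SB-treated library than in any control library. SMTN carries most of that sum, from a mean of 7.72 to 10.1 RPKM, while DES was lower in every SB-treated library, from a mean of 0.453 to 0.268 RPKM. Of the 7 smooth muscle genes 3 were higher and 1 lower (limma; against 33% and 32.6% of all genes), and after correcting for GC content and length 3 were higher and 3 lower (against 34.7% and 36.9% of all genes). Without SB-treated replicate 2, 3 or 4 the number higher was 2 in each case (against 29.7% to 29.8% of all genes). The part of these markers in the results was not tested.

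One library stood apart before any gene was considered. Control replicate 1 differed from the other controls with a chi-square per degree of freedom of 35.5 to 40.6, where 1 is sampling noise, while the other pairs of replicates of a group gave 1.53 to 3.93. A smooth trend with GC content and gene length accounted for 38.5% of the variance over genes of its deviation from the mean library, against 9.80% to 16.5% in the other 7 libraries. Where leaving this library out changed the call of a named gene, both values are given. Among the markers this was COL1A1, with a log2 fold change of -0.19 that was not called and one of -0.31 without this library that was called lower (limma).

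Actin is the protein of the thin filaments that shape the cell and, with myosin, pull on its attachments. Free actin monomers hold the SRF cofactors MRTFA and MRTFB in the cytoplasm; when signalling by small GTPases drives monomers into filaments, the cofactors enter the nucleus and SRF switches on its target genes. SRF binds the CArG box, and classical targets include actins, vinculin, calponins, transgelins, tropomyosins and SRF itself. ACTB and ACTG1 are the cytoplasmic actins of nearly all cells, and ACTB is widely used as a reference in RT-qPCR on the premise that its level hardly moves.

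The promoters of 3 of the 7 genes searched carry a CArG box in the window from 250 bases before to 50 bases after a RefSeq start (RefSeq, GRCh38.p14), and are shown because this is the letter pattern that SRF binds. Capitals mark the boxes, and both strands were searched. SRF has 2 boxes, 30 to 21 and 10 to 1 bases before the start, in chr6:43171019-43171318 (plus strand). ACTG1 has 1, 94 to 85 bases before the start, in chr17:81512750-81513049 (minus strand). CNN2 has 1, 89 to 80 bases before the start, in chr19:1026358-1026657 (plus strand).
SRF: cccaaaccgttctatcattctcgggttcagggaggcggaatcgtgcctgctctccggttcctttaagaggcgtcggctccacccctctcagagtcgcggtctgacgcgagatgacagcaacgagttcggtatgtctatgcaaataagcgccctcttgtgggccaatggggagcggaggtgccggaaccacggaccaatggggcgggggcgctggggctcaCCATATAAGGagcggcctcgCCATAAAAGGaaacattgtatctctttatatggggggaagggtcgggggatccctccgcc
ACTG1: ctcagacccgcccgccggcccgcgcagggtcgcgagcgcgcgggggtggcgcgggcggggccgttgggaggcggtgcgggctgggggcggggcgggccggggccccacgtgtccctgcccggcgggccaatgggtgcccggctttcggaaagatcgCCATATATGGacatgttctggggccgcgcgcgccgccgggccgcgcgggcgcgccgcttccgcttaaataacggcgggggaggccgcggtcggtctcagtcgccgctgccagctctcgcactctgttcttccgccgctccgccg
CNN2: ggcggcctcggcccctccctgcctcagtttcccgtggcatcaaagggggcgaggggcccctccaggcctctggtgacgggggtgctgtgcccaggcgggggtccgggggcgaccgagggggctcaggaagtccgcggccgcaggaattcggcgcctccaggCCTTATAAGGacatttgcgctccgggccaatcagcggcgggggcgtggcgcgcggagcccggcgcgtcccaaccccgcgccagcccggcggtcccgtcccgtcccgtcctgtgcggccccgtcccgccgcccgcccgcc
The windows of TAGLN2, TPM1, TPM2 and VCL held no CArG box, and those of ACTB, TAGLN and MYL9 were not analysed here. Of 35116 RefSeq promoters of this length, 1.29% held one, while 11.5% held TATAAA, 34.6% CCAAT and 45.0% GGGCGG. A match describes letters and is not evidence of binding. Among the genes of the table with a RefSeq promoter, 169 had a CArG box, of which 51 were higher and 50 lower after SB at an adjusted p below 0.05 (limma), with a median log2 fold change of 0.01. Over all 10651 genes with a promoter, 3453 were higher and 3594 lower, with a median of 0.00.

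Each gene was located in GENCODE release 44 on GRCh38 (hg38). ACTB lies on chromosome 7 from 5526409 to 5563902 (minus strand) and ACTG1 on chromosome 17 from 81509413 to 81523847 (minus strand). VCL lies on chromosome 10 from 73995193 to 74121363 (plus strand), TAGLN on chromosome 11 from 117199370 to 117207464 (plus strand) and TAGLN2 on chromosome 1 from 159918107 to 159925507 (minus strand). CNN2 lies on chromosome 19 from 1026586 to 1039068 (plus strand) and MYL9 on chromosome 20 from 36541497 to 36551447 (plus strand). TPM1 lies on chromosome 15 from 63042620 to 63071915 (plus strand), TPM2 on chromosome 9 from 35681992 to 35690056 (minus strand) and SRF on chromosome 6 from 43171269 to 43181506 (plus strand). Actin genes have many processed copies, so reads were checked for uniqueness in windows of 50 bases along the canonical transcript. Of the ACTB windows 19.1% were found elsewhere on the chromosomes, and of the TAGLN2 windows 21.6%. The share was 8.24% for ACTG1, 1.90% for CNN2, 0.294% for VCL 0 for TPM1, TPM2 and SRF, and 34.6% for TAGLN. These shares cover the canonical transcript, whose length is not always the one counted. It was 3786 bases against 1557 counted for TAGLN, 1217 against 3349 for TPM1 and 1190 against 1574 for TPM2. For TAGLN2 it was 1375 against 1754 bases, for CNN2 2149 against 2548 and for ACTG1 1919 against 2105, and in ACTB, VCL and SRF the lengths were equal or close. ACTB and ACTG1 shared 10 windows with each other. How reads with several matches were counted is not given in the sources used here, so the levels of ACTB, ACTG1, TAGLN2 and TAGLN carry that uncertainty.

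Among the 9 genes, TAGLN2 and SRF rose after SB and TPM1 and TPM2 fell, at an adjusted p below 0.05 in the limma fit over all 14526 genes. Thus 2 of 9 were higher, against 33% of all genes, and 2 of 9 were lower, against 32.6% of all genes. The counts over the whole table were 4787 higher and 4740 lower, so that the share of these genes that passed was not above that of the table. Their median log2 fold change was -0.02, and that of all genes was 0.00. Groups without overlap were seen for 3 genes with all SB-treated libraries above all controls (ACTG1, TAGLN2, SRF), against 31% of all genes, and for 2 with all below (TPM1, TPM2), against 30.5%. Without control replicate 1, 3 genes were higher (37.6% of all genes) and 4 lower (37.9% of all genes), because ACTG1 joined the first and ACTB and CNN2 the second. The balance of directions depended on the scaling. Of all calls 50.2% were higher with the authors' TMM library sizes, 65.1% (6253 higher, 3355 lower) without the TMM factors, and 77.8% (5296 higher, 1515 lower) when ACTB was set equal in all libraries. The median log2 fold change of all genes, 0.00 with these sizes, was 0.08 without the TMM factors and 0.12 with ACTB equalised. The median of the 9 genes turned to 0.04 without the TMM factors and to 0.10 with ACTB equalised (8 genes). It was -0.07 with the GC content and length correction and -0.12 without control replicate 1, where that of all genes was -0.01 and 0.00.

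**Figure D1:**
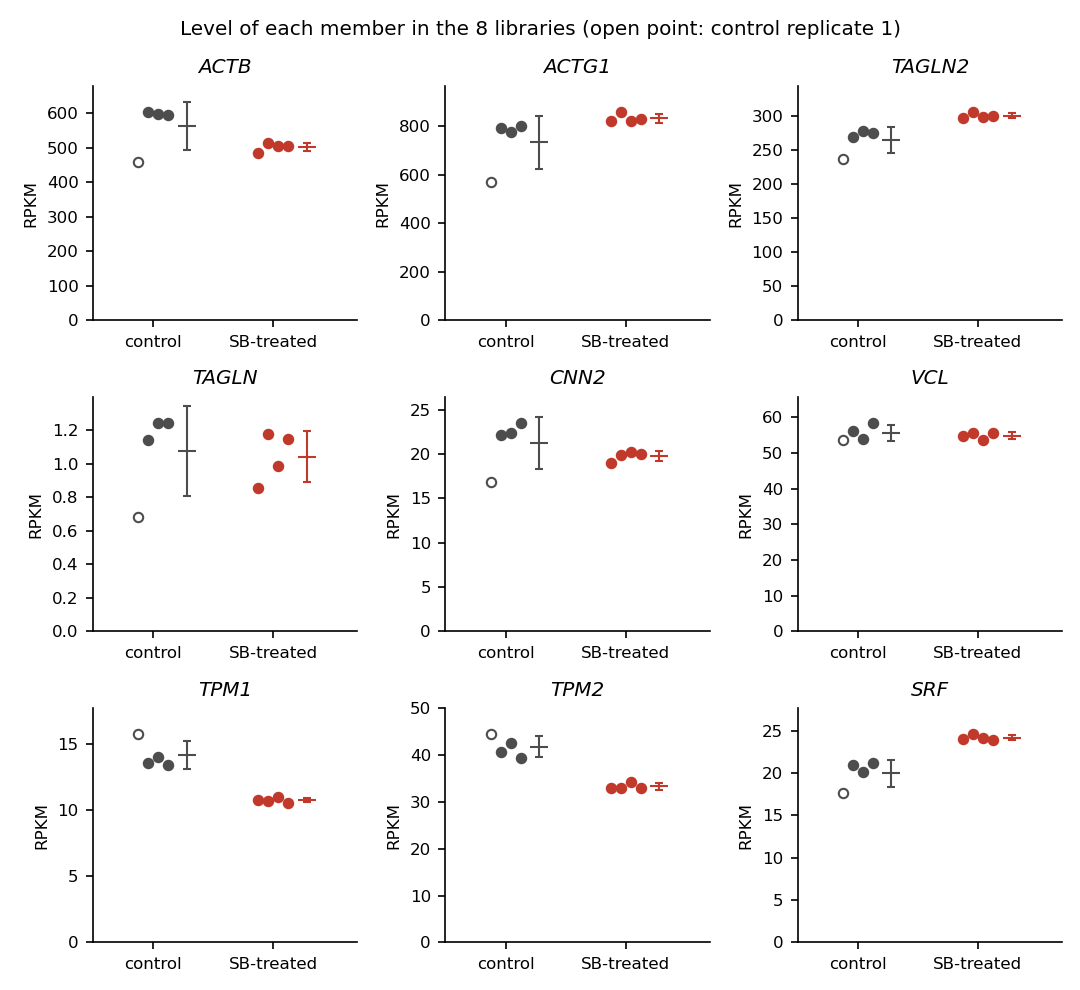
RPKM of the 9 genes in each library, each panel starting at 0, with controls in grey, SB-treated libraries in red and control replicate 1 as an open point; the bar beside each group is its mean and SD. Control replicate 1 is the lowest control for 7 genes and the highest for TPM1 and TPM2.

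ACTB was at 459, 604, 597 and 596 RPKM in control replicates 1 to 4 and at 485, 513, 506 and 507 RPKM in SB-treated replicates 1 to 4. Control replicate 1 lay below every SB-treated library and the other 3 controls lay above every SB-treated library, so the groups overlapped through 1 library. The means were 564 ± 69.9 RPKM in control and 503 ± 12.1 RPKM in SB-treated libraries (SD, n = 4). The log2 fold change was -0.16 with an SE of 0.08 and a 95% interval of -0.34 to 0.03 (limma adjusted p = 0.118; exact permutation test, two-sided, p = 0.143). Without control replicate 1 the interval was -0.31 to -0.19 around -0.25 (limma adjusted p = 2.48e-05), and over all 16 alternatives the adjusted p ran from 2.48e-05 to 0.608. The fold change was smaller in size with the GC content and length correction (-0.07) and without TMM factors (-0.05), and passed in neither. Controls 2 to 4 had a coefficient of variation (CV) of 0.720%, against 12.4% with control replicate 1.

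ACTG1, the other cytoplasmic actin, was at 571, 791, 776 and 799 RPKM in control replicates 1 to 4 and at 820, 858, 823 and 831 RPKM in SB-treated replicates 1 to 4. Every SB-treated library was above every control, by a small margin except over control replicate 1. The log2 fold change was 0.19 with an SE of 0.10 and a 95% interval of -0.02 to 0.41 (limma adjusted p = 0.105). An exact permutation test, two-sided, gave p = 0.0286, the smallest that 4 against 4 allow. Without control replicate 1 the fold change was smaller, 0.08, and passed the test (limma adjusted p = 0.0245); over all 17 alternatives the adjusted p ran from 2.65e-04 to 0.192. It was larger and also passed without TMM factors (0.30), with ACTB equalised (0.35) and with the GC content and length correction (0.26).

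The ratio of ACTG1 to ACTB inside a library needs no library size. It was 1.24, 1.31, 1.30 and 1.34 in control replicates 1 to 4 and 1.69, 1.67, 1.63 and 1.64 in SB-treated replicates 1 to 4. The groups were far apart and control replicate 1 stood with the other controls. Ratios without overlap between the groups were common, being found for 59.4% of all pairs of genes of the table. The mean ratio was 1.30 ± 0.0412 in control and 1.66 ± 0.0288 in SB-treated libraries (SD, n = 4), a fold of 1.28 (exact permutation test, two-sided, p = 0.0286, the smallest possible). The difference was 0.35 on the log2 scale. It lay between 0.33 and 0.37 when each library was left out in turn, an alternative chosen after the data were seen. The sum of both actins was 1030, 1395, 1374 and 1395 RPKM in the controls and 1305, 1372, 1328 and 1337 RPKM in the SB-treated libraries. Thus the SB-treated sums lay between control replicate 1 and the other 3 controls (exact permutation test, two-sided, p = 1), and without control replicate 1 all were lower than the controls (exact permutation test, two-sided, p = 0.0571).

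**Figure D2:**
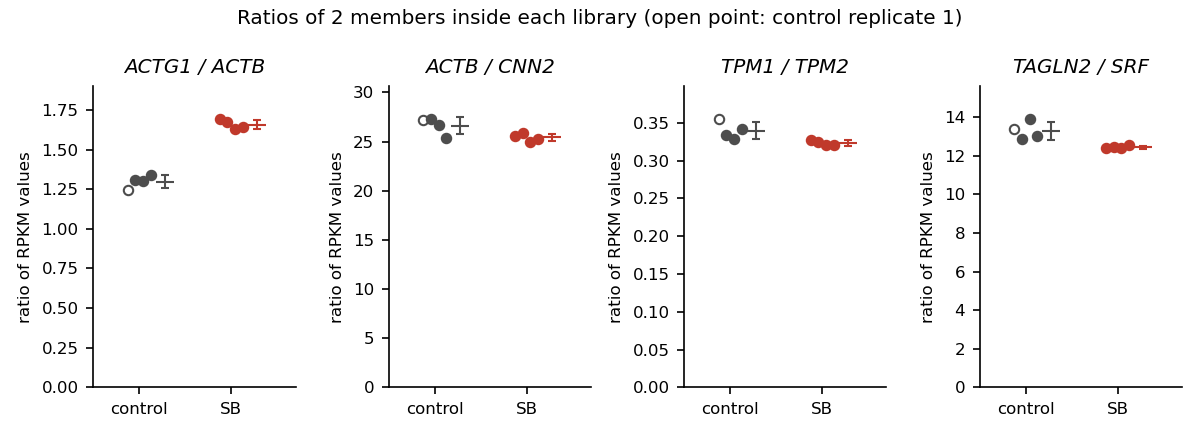
Ratios of RPKM values inside each library for 4 pairs of genes, each axis starting at 0, with controls in grey, SB-treated libraries in red, control replicate 1 as an open point, and mean and SD as bars. The ACTG1 to ACTB ratio runs from 1.24 to 1.34 in controls and from 1.63 to 1.69 in SB-treated libraries.

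TAGLN2, a widely expressed transgelin that bundles actin filaments, was at 236, 269, 278 and 275 RPKM in control replicates 1 to 4 and at 297, 306, 299 and 300 RPKM in SB-treated replicates 1 to 4. All SB-treated libraries were above all controls, and the SB-treated values lay within a narrow band. TAGLN2 rose by a log2 fold change of 0.19 with an SE of 0.05 (limma adjusted p = 0.0106), from a mean of 265 ± 19.3 to 300.5 ± 3.83 RPKM (SD, n = 4). It stayed higher and past the threshold in all 17 alternatives.

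CNN2, a calponin of non-muscle cells, was at 16.9, 22.2, 22.4 and 23.5 RPKM in control replicates 1 to 4 and at 19.0, 19.9, 20.3 and 20.1 RPKM in SB-treated replicates 1 to 4. As with ACTB, control replicate 1 was below and the other controls were above all SB-treated libraries. The log2 fold change was -0.09 with a 95% interval of -0.28 to 0.11 (limma adjusted p = 0.40), and -0.19 without control replicate 1 (limma adjusted p = 5.53e-04; 5.53e-04 to 0.908 over 17 alternatives). Its sign turned to 0.01 without TMM factors and to 0.06 with ACTB equalised.

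TAGLN, the smooth muscle transgelin and a classical SRF target, stood near the lower edge of the table. It was at 0.679, 1.14, 1.24 and 1.24 RPKM in control replicates 1 to 4 and at 0.852, 1.18, 0.987 and 1.15 RPKM in SB-treated replicates 1 to 4. Only 45 to 79 reads lay behind the control values and 51 to 83 behind the SB-treated values, and the groups overlapped. The log2 fold change was -0.02 with a 95% interval of -0.23 to 0.19 (limma adjusted p = 0.881). At this level the added 1 RPKM narrows the interval, whose width was 0.424 here, 0.802 with a pseudocount of 0.1 and 0.870 with voom. The sign turned in 8 of 16 alternatives, among them the scalings without TMM factors (0.04) and with ACTB equalised (0.07), and without control replicate 2 (0.00), 3 (0.02) or 4 (0.02) or SB-treated replicate 1 (0.03). Without control replicate 1 it was -0.12 and did not pass.

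VCL, which links actin filaments to adhesions, was at 53.6, 56.1, 54.0 and 58.4 RPKM in control replicates 1 to 4 and at 54.7, 55.7, 53.6 and 55.6 RPKM in SB-treated replicates 1 to 4. High and low libraries of both groups interleaved, and control replicate 1 lay among the rest. The means were 55.5 ± 2.23 and 54.9 ± 1.01 RPKM (SD, n = 4), and the log2 fold change was -0.02 with a 95% interval of -0.10 to 0.07 (limma adjusted p = 0.739). The correction for GC content and gene length gave -0.11 (limma adjusted p = 0.00719), against 0.00719 to 0.948 over 17 alternatives. Its sign turned to 0.09 without TMM factors, to 0.14 with ACTB equalised and to 0.01 without control replicate 4.

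The tropomyosins TPM1 and TPM2 are coiled rods that lie along the actin filament and gate the access of myosin and other partners. TPM1 was at 15.8, 13.6, 14.0 and 13.5 RPKM in control replicates 1 to 4 and at 10.8, 10.7, 11.0 and 10.6 RPKM in SB-treated replicates 1 to 4. TPM2 was at 44.5, 40.7, 42.6 and 39.4 RPKM in the controls and at 33.0, 32.9, 34.2 and 33.0 RPKM in the SB-treated libraries. For both genes every SB-treated library was below every control, and control replicate 1 was the highest library. TPM1 fell by 0.37 on the log2 scale with an SE of 0.05 (limma adjusted p = 1.30e-04), and TPM2 fell by 0.32 with an SE of 0.04 (limma adjusted p = 1.32e-04). Both kept the direction in all 17 alternatives, but with ACTB equalised neither passed (limma adjusted p = 0.165 for TPM1 and 0.256 for TPM2). Their lowest adjusted p over the alternatives was 4.15e-06 and 3.15e-05. The TPM1 to TPM2 ratio lay between 0.329 and 0.355 in the controls and between 0.321 and 0.328 after SB, so the groups did not overlap (exact permutation test, two-sided, p = 0.0286, the smallest possible). Ratios of 59.4% of all pairs of genes of the table did not overlap either.

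SRF, the transcription factor itself, was at 17.7, 21.0, 20.1 and 21.1 RPKM in control replicates 1 to 4 and at 24.0, 24.6, 24.1 and 23.9 RPKM in SB-treated replicates 1 to 4. All SB-treated libraries were above all controls. SRF rose by a log2 fold change of 0.27 with an SE of 0.05 (limma adjusted p = 0.00163), from a mean of 19.96 ± 1.59 to 24.2 ± 0.290 RPKM (SD, n = 4). It was higher and past the threshold in all 17 alternatives, with log2 fold changes from 0.14 to 0.42.

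**Figure D3:**
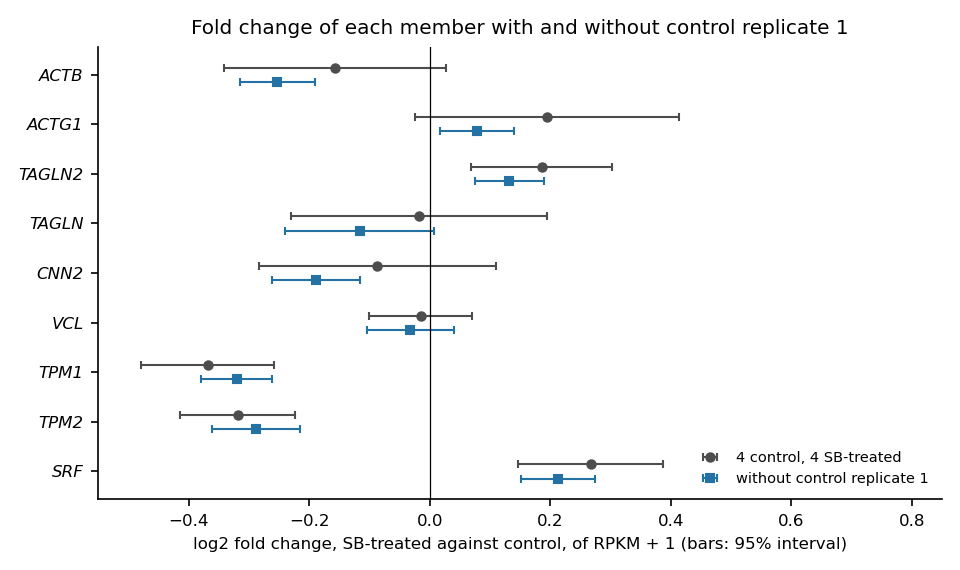
Log2 fold change of RPKM + 1 for the 9 genes, SB-treated against control, with 95% intervals from limma, for all 8 libraries (grey circles) and without control replicate 1 (blue squares). ACTB moves from -0.16 to -0.25 and its interval no longer reaches 0, while VCL stays near 0 in both.

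By mean control level the order was ACTG1 (734 RPKM), ACTB (564 RPKM), TAGLN2 (265 RPKM), VCL (55.5 RPKM), TPM2 (41.8 RPKM), CNN2 (21.2 RPKM), SRF (19.96 RPKM), TPM1 (14.2 RPKM) and TAGLN (1.08 RPKM). ACTG1 was above ACTB in each of the 8 libraries. The order rests on the counted lengths, and that of TPM1 was 3349 bases against 1217 for its canonical transcript. CNN2 and SRF were closer than their SDs in the controls and stood in the opposite order after SB, at 19.8 ± 0.571 and 24.2 ± 0.290 RPKM (SD, n = 4).

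Stability was compared on 3 scales. By the highest library over the lowest of 8, VCL was the steadiest of these genes at 1.09, and 1.43% of all genes had as small a span. TAGLN2 (1.29), ACTB (1.31), TPM2 (1.35), SRF (1.39), CNN2 (1.39), TPM1 (1.49) and ACTG1 (1.5) followed, and TAGLN had the widest span, 1.83, against a median of 1.42 over all genes. The order of the spans also depended on control replicate 1. Without it VCL (1.09), ACTG1 (1.11) and TAGLN2 (1.14) had the smallest spans and TAGLN (1.46) the widest. SRF was then at 1.22, CNN2 at 1.24, ACTB at 1.24, TPM2 at 1.3 and TPM1 at 1.33. By spread within a group, VCL (SD of 0.04 on the log2 scale) and TPM2 (0.06) were tightest, while ACTB (0.14), CNN2 (0.15), TAGLN (0.16) and ACTG1 (0.17) were wide. Of all genes, 90.5% had as small a within-group SD as ACTB and 96.3% as ACTG1. Without control replicate 1 this order changed. The same SD was then 0.02 for TAGLN2 and TPM1, 0.03 for both actins and SRF, and 0.04 for VCL, TPM2 and CNN2. TAGLN was at 0.09, and 17.8% of all genes had as small a value as ACTB without that library. By size of fold change, 4.25% of all genes had as small a log2 fold change as VCL, 4.89% as TAGLN, 40.4% as ACTB and 77.3% as TPM1. ACTB was thus steady inside each group once control replicate 1 was set aside, but its RPKM mean after SB was 16.1% below controls 2 to 4, and 10.9% below all 4 controls. The size of this drop depended on the processing. The log2 fold change of ACTB was -0.05 without TMM factors and -0.07 with the GC content and length correction. Of 16 alternatives it passed only in that without control replicate 1. The distance of control replicate 1 from the other controls was -0.38 on the log2 scale for ACTB and -0.47 for ACTG1, and 5.96% and 2.01% of all genes lay as far. VCL was at -0.07, a distance that 74.6% of all genes reached.

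Ratios inside a library were taken for all 36 pairs of the 9 genes. In 21 of the 36 pairs the groups did not overlap, against 59.4% of all pairs of genes of the table. None of these 21 involved TAGLN, whose ratios rest on 45 to 83 reads a library. By highest over lowest library, the ratio of ACTB to CNN2 was the steadiest at 1.09 (from 24.96 to 27.2), and that of TPM1 to TPM2 followed at 1.11. The ratio of TAGLN2 to SRF ran from 12.4 to 13.9. The groups overlapped for ACTB to CNN2 (exact permutation test, two-sided, p = 0.0857) and did not for TAGLN2 to SRF. The widest change was that of TPM1 to SRF, from between 0.637 and 0.892 in the controls to between 0.435 and 0.455 after SB. The ratio of ACTB to SRF went from between 26.0 and 29.8 to between 20.2 and 21.2, and that of ACTB to TAGLN2 from between 1.94 and 2.24 to between 1.63 and 1.69. Both changes left no overlap.

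Of 26 SRF cofactors and genes of the GTPase and actin pathway, 25 had rows, and 15 were higher and 3 lower after SB (limma; against 33% and 32.6% of all genes), with a median log2 fold change of 0.19 against 0.00 over all genes. With the GC content and length correction, 12 of 23 were higher and 6 lower with a median of 0.10 (against 34.7% and 36.9% of all genes), and without control replicate 1, 16 of 25 were higher and 5 lower (against 37.6% and 37.9% of all genes). ARHGEF2, a microtubule-bound exchange factor for RhoA, rose from between 23.1 and 25.1 RPKM to between 34.4 and 35.1 RPKM (log2 fold change 0.49, limma adjusted p = 3.78e-06). MRTFB, listed under its older symbol MKL2, rose from between 4.82 and 5.13 to between 7.11 and 7.52 RPKM (0.48, adjusted p = 2.67e-06). LIMK1, the kinase that inactivates cofilin, rose from between 9.24 and 11.6 to between 14.4 and 15.9 RPKM (0.47, adjusted p = 1.80e-04). Those that fell were GTPases and a formin. RHOA, the most abundant of the list, went from between 239 and 255 to between 206 and 211 RPKM (-0.25, adjusted p = 1.52e-04), RHOB fell by 0.23 and DIAPH2 by 0.23 on the log2 scale. With ACTB equalised these 3 kept their direction without passing, and with the GC content and length correction RHOA was at -0.10. MYOCD had no row.

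Relatives of these genes, other actins, calponins, tropomyosins, myosin chains and crosslinkers, had rows for 18 of 23, with 7 higher, 4 lower (against 33% and 32.6% of all genes) and a median log2 fold change of 0.06. With ACTB equalised 8 were higher and 0 lower (against 36.5% and 10.4% of all genes). Without SB-treated replicate 2, 3 or 4 the number higher was 4 in each case (against 29.7% to 29.8% of all genes), and without control replicate 1 it was 10 (against 37.6%). ACTA1, ACTC1, ACTG2, ACTBL2 and TAGLN3 had no row. The largest rise was that of FLNC, a muscle filamin, from 14.9, 21.7, 20.8 and 22.1 RPKM in control replicates 1 to 4 to 52.7, 56.1, 53.8 and 51.7 RPKM in SB-treated replicates 1 to 4 (log2 fold change 1.40, limma adjusted p = 4.01e-06). CNN1, the smooth muscle calponin, rose from at most 0.493 to at least 0.842 RPKM (0.42, and 0.92 with a pseudocount of 0.1). MYH9, the heavy chain of non-muscle myosin, rose from at most 43.9 to at least 50.8 RPKM (0.37, and 0.17 with the GC content and length correction). MYL6, the essential light chain and the most abundant of the list, rose from at most 208 to at least 242 RPKM (0.31, and 0.51 with that correction). TPM3 fell by 0.44, MYL12B by 0.29 and MYL6B by 0.16 on the log2 scale. Thus TPM3 fell as TPM1 and TPM2 did, and like them it did not pass with ACTB equalised (-0.29). MYL12B and MYL6B did not pass with the GC content and length correction (both -0.03) or with ACTB equalised (-0.13 and -0.01), nor did MYL6B without TMM factors (-0.06).

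Of 23 partners of vinculin at adhesions and junctions, 22 had rows, with 4 higher and 6 lower (against 33% and 32.6% of all genes) and a median log2 fold change of 0.00, which was 0.16 with ACTB equalised and -0.07 with the GC content and length correction, while FERMT1 had none. Without TMM factors 9 were higher and 4 lower (against 43.0% and 23.1% of all genes), and with ACTB equalised 9 were higher and 1 lower (against 36.5% and 10.4% of all genes). TGFB1I1, a paxillin relative, rose from between 0.844 and 1.26 to between 2.20 and 2.96 RPKM (log2 fold change 0.75, or 1.14 with a pseudocount of 0.1, limma adjusted p = 2.57e-05). BCAR1, a scaffold of adhesion signalling, rose by 0.42 (0.20 with the GC content and length correction) and TES, a LIM protein, by 0.25. ENAH, which lengthens filaments at their tips, fell by 0.36, the LIM protein PDLIM7 by 0.34 and the integrin activator FERMT2 by 0.32, though ENAH and FERMT2 did not pass with ACTB equalised. ZYX, the most abundant, was at 47.4, 66.6, 65.7 and 64.4 RPKM in control replicates 1 to 4 and at 66.4, 71.4, 69.6 and 68.4 RPKM in SB-treated replicates 1 to 4 (limma adjusted p = 0.118). Its control replicate 1 was the low library, as for ACTB. ZYX was called higher without TMM factors (0.29), with ACTB equalised (0.34) and with the GC content and length correction (0.15), and was not called without control replicate 1 (0.07, against 0.19 with it).

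Of 34 genes of filament assembly and turnover 33 had rows, 3 were higher and 20 lower (against 33% and 32.6% of all genes), and the median log2 fold change was -0.26 against 0.00 for all genes. The median was -0.16 without TMM factors, -0.16 with the GC content and length correction and -0.11 with ACTB equalised, where 7 were lower and 3 higher (against 10.4% and 36.5% of all genes). PFN1, which feeds actin monomers to growing filaments, fell from 267, 322, 324 and 310 RPKM in control replicates 1 to 4 to 187, 209, 206 and 201 RPKM in SB-treated replicates 1 to 4 (log2 fold change -0.60, limma adjusted p = 3.18e-05). CFL1, cofilin, which severs filaments, fell from between 292 and 355 to between 231 and 247 RPKM (-0.49, adjusted p = 1.13e-04). ARPC2, a subunit of the Arp2/3 complex that branches filaments, fell from between 118 and 132 to between 85.0 and 89.2 RPKM (-0.48, adjusted p = 9.89e-06). TMSB10, the most abundant of the list and a monomer-binding thymosin, fell by 0.15 from a mean of 423 to 382 RPKM, but did not pass without TMM factors (-0.04), and its sign turned with ACTB equalised (0.01) and with the GC content and length correction (0.07). SVIL, a membrane-linked villin relative, rose by 0.35 (0.20 with that correction), EZR, which ties filaments to the membrane, by 0.24 and TMSB4X, the other thymosin, by 0.15 (0.43 with that correction).

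ACTB was set beside 17 other genes often used as RT-qPCR references. All 17 had rows, and 13 were lower, 2 higher and 2 not past the threshold (limma; against 32.6% of all genes lower and 33% higher), with a median log2 fold change of -0.30 against 0.00 over all genes. The median was below 0 under each scaling, at -0.20 without TMM factors and -0.15 with ACTB equalised, where 4 were lower and 2 higher (against 10.4% and 36.5% of all genes). With the GC content and length correction 11 were lower and 1 higher (against 36.9% and 34.7% of all genes), with a median of -0.16. GAPDH, an enzyme of glycolysis, fell from 1189, 1359, 1315 and 1363 RPKM in control replicates 1 to 4 to 815, 830.0, 821 and 825 RPKM in SB-treated replicates 1 to 4 (log2 fold change -0.66, limma adjusted p = 2.62e-06). PGK1, also of glycolysis, fell by 0.67 and POLR2A, the large subunit of RNA polymerase II, by 0.54. TFRC, the transferrin receptor, rose by 0.67. TUBB, a tubulin, rose by 0.16, but by 0.02 with the GC content and length correction, where it did not pass. EEF1A1, a translation factor and the most abundant, fell from a mean of 3033 to 2620 RPKM, and did not pass with ACTB equalised. The 2 genes that did not pass were IPO8, at -0.05 with a 95% interval of -0.13 to 0.02, and RPL13A, at -0.15 with -0.32 to 0.02. Without control replicate 1 RPL13A was called lower (-0.23), and its sign turned with ACTB equalised (0.01) and with the GC content and length correction (0.02). IPO8, a nuclear import receptor, had a highest over lowest library of 1.09, as VCL did. Both were called lower with the GC content and length correction (-0.08 for IPO8 and -0.11 for VCL). Both signs turned without TMM factors (0.05 for IPO8 and 0.09 for VCL) and with ACTB equalised (0.10 and 0.14). PPIA, a cyclophilin, had small replicate spread and was lower (-0.15, limma adjusted p = 0.00214), but at 0.01 with ACTB equalised, and it did not pass without TMM factors (-0.04) or with the GC content and length correction (-0.06).

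**Figure D4:**
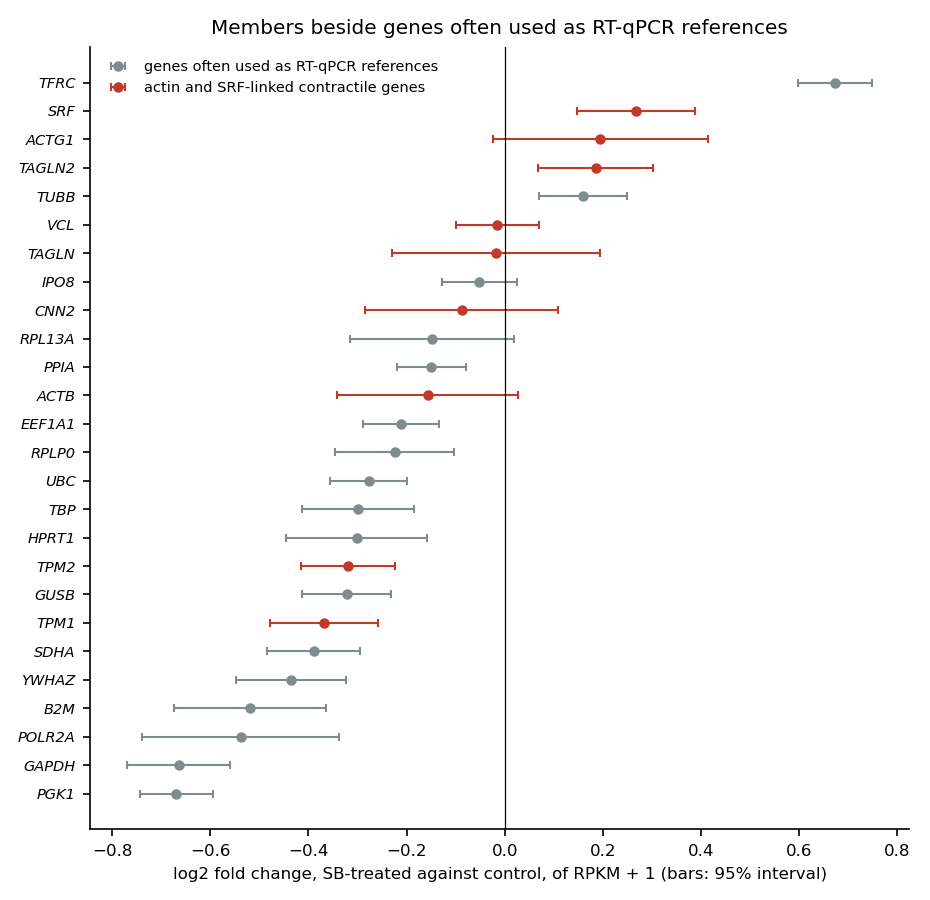
Log2 fold change of RPKM + 1, SB-treated against control, with 95% intervals from limma, for the 9 genes (red) and for 17 genes often used as RT-qPCR references (grey), in order of size. ACTB (-0.16) lies among the smaller changes, GAPDH (-0.66) and PGK1 (-0.67) are at the lower end and TFRC (0.67) at the upper end.

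The study measured PLA2G4C, ACHE, PLA2G15 and PTGS2 by RT-qPCR, and had selected them as upregulated in these libraries, so their ratios to ACTB are given as description with no test. Per 1000 units of ACTB, PLA2G4C, a phospholipase A2, was at 1.51, 1.28, 1.44 and 1.30 in control replicates 1 to 4 and at 3.17, 2.75, 2.44 and 2.81 in SB-treated replicates 1 to 4. ACHE, acetylcholinesterase, was at 1.94, 1.83, 2.19 and 1.73 in the controls and at 4.64, 5.0, 5.14 and 4.55 after SB. PLA2G15, a lysosomal phospholipase, was at 9.03, 10.6, 9.45 and 10.3 in the controls and at 17.2, 16.8, 16.9 and 16.8 after SB. PTGS2, the inducible cyclooxygenase, was at 0.774, 0.740, 0.657 and 0.740 in the controls and at 1.86, 1.79, 1.36 and 1.60 after SB. For all 4 genes every SB-treated ratio was above every control ratio. Mean control levels were low, at 1.08 RPKM for ACHE, 0.409 for PTGS2, 0.775 for PLA2G4C and 5.59 for PLA2G15. All but PLA2G15 were thus near or below the mean control level of TAGLN (1.08 RPKM). With a pseudocount of 0.1 the log2 differences relative to ACTB were 1.26 (ACHE), 1.03 (PTGS2), 0.94 (PLA2G4C) and 0.77 (PLA2G15). Without a pseudocount they were 1.33, 1.18, 1.01 and 0.78. Scaled to ACTB the fold of SB-treated over control was 2.52 (ACHE), 2.26 (PTGS2), 2.02 (PLA2G4C) and 1.72 (PLA2G15). Without scaling to a gene the folds were 2.26, 2.03, 1.81 and 1.54 in the same order. The choice of denominator moved them. In that order they were 1.98, 1.77, 1.58 and 1.35 scaled to ACTG1, and 2.29, 2.05, 1.83 and 1.56 scaled to VCL. They were 1.86, 1.67, 1.49 and 1.27 scaled to SRF, and 2.98, 2.67, 2.38 and 2.03 scaled to TPM1.

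**Figure D5:**
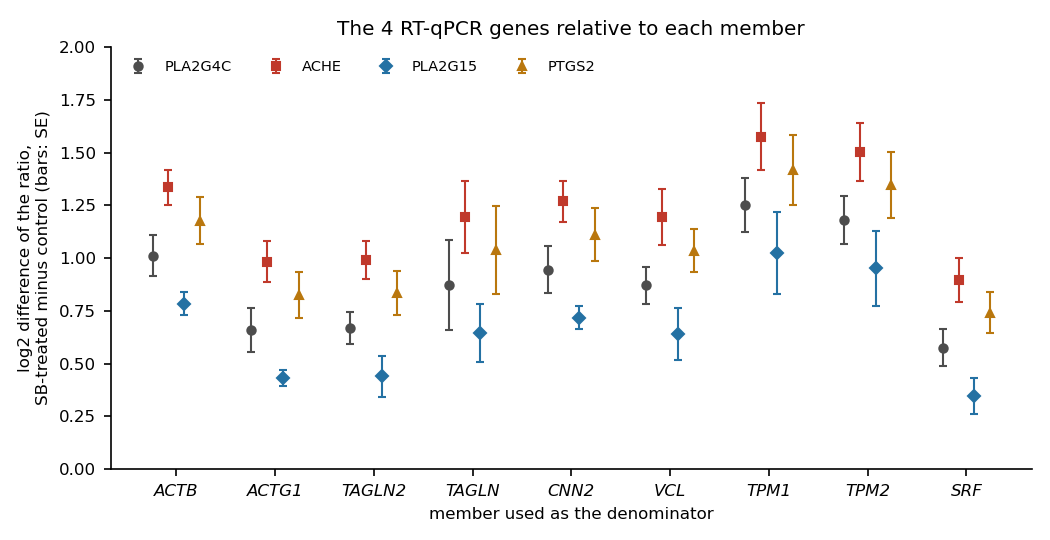
Difference of the log2 ratio of PLA2G4C, ACHE, PLA2G15 and PTGS2 to each of the 9 genes, SB-treated minus control; points are differences of means and bars their SE (n = 4 a group). Differences are smallest with SRF as the denominator and largest with TPM1.

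The genes whose pattern over the 8 libraries was most like that of ACTB were GAA (Pearson r = 0.996), CCND3 (0.995) and RPL18 (0.995), computed on log2(RPKM + 1). Like ACTB, all 3 had control replicate 1 far below the other controls, by -0.47, -0.37 and -0.41 on the log2 scale. For TAGLN they were STRADA (0.992), TYSND1 (0.976) and ARSA (0.974). Among the 9 genes CNN2 was nearest to ACTB (0.947), followed by TAGLN (0.806), while ACTG1 was at 0.376 and SRF at -0.12. The 8 libraries share the treatment contrast and control replicate 1, so these values describe shape and carry no test.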

How the data were processed

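RNA-seq was done by the authors on 8 libraries, 4 control and 4 SB-treated, made with a stranded total RNA kit. Per the submitters' processing notes the authors used TopHat2 2.1.0 on hg38, featureCounts 1.5.0 and edgeR 3.16.5. The deposited RPKM values hold genes above 1 CPM in at least 2 samples and use TMM library sizes, as set by the authors. The fold change, mean log2 CPM, p-value and FDR columns of the authors' own comparison were not used. Whole reads were recovered from the steps of the RPKM values for 100% of the genes, to within 0.002 reads. Values were fitted as log2(RPKM + 1) with limma 3.58.1 in R 4.3.3 (lmFit, eBayes, group only) and adjusted by Benjamini-Hochberg over all 14526 genes; fold changes are on this scale, which understates changes of low genes. No further filter was used. Single values were compared with an exact permutation test, two-sided, whose smallest p is 0.0286. The scripts were tested on simulated data. A GC value from GENCODE release 44 was found for 91.5% of the genes, with Python 3.11.15.

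The members and lists were chosen with earlier results of these data known. Named genes are the 10 members, up to 3 rises and 3 falls past the threshold and the most abundant gene of each list, the 4 RT-qPCR genes, and the 3 genes most like ACTB and TAGLN. Some listed genes are not reported here. Further genes (IPO8, RPL13A, PPIA) were named after their values were seen. Alternatives were a pseudocount of 0.1, other scalings, a minimum of 1 RPKM, the replicate number as a block, voom, a GC content and length correction, and leaving out each library. Read numbers give the counting error only, and the spread between replicates was larger.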

Additional observations from a re-analysis of the deposited data

Results flagged for a closer look

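In each group of 4 libraries, the gap between the highest or lowest library and its nearest neighbour was divided by the range of the group. Of 148 groups examined for the named genes, markers and the actin sum, 23 had a value above Dixon's 95% critical value for 4 samples. Chance gives such a value in about 1 in 20 groups, here about 7.4. In 19 of the 23 the library apart was control replicate 1, and in 4 it was another library. The groups share their libraries and are not independent.

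Among the actin and SRF-linked genes, control replicate 1 was the low control for ACTB (0.951), ACTG1 (0.914), TAGLN (0.843) and the sum of ACTB and ACTG1 (0.948). It was also the low control for ARHGEF2 (0.917), LIMK1 (0.841), FLNC (0.845), MYH9 (0.904), ZYX (0.902), SVIL (0.881), CFL1 (0.975) and COL1A1 (0.935). Among the RT-qPCR references it was low for RPLP0 (0.991), RPL13A (0.875) and POLR2A (0.955). It was the high control for MYL12B (0.865), FERMT2 (0.8294), ARPC2 (0.863) and HPRT1 (0.884).

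In the SB-treated group, replicate 3 was the high library for TPM2 (0.932) and replicate 4 for EEF1A1 (0.841). Replicate 4 was the low library for MYL6B (0.897) and replicate 1 for BCAR1 (0.857).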

How the results depend on the processing

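TAGLN2, SRF, TPM1 and TPM2 held both their direction and their call in 66 of 68 results, the exceptions being TPM1 and TPM2 with ACTB equalised. For 48 further named genes this held in 760 of 809 results, and 26 of the genes were the same in each alternative. The ratio of ACTG1 to ACTB, whose alternatives were chosen after seeing the data, lay between 0.33 and 0.37 on the log2 scale without each library in turn.

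With ACTB equalised 1515 of all genes and 0 of the 8 actin and SRF-linked genes with a value were lower. Each library is then divided by its ACTB value, so all fold changes move up by construction. The median log2 ratio of all genes went from 0.01 to 0.17. What else entered these counts was not tested. Without each library in turn, between 4311 and 5459 genes were higher and between 4285 and 5511 lower, and of the 9 genes 2 to 3 were higher and 2 to 4 lower. The log2 fold change of ACTB then ran from -0.25 to -0.12, and it passed without control replicate 1 (-0.25), where ACTG1 (0.08) and CNN2 (-0.19) also did. With at least 1 RPKM in every library TAGLN gave no value, and with ACTB equalised ACTB gave none.

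Signs turned as follows on the log2 scale. Without TMM factors, VCL was at 0.088, TAGLN at 0.036, CNN2 at 0.013 and IPO8 at 0.0499. With ACTB equalised, VCL was at 0.14, TAGLN at 0.0697, CNN2 at 0.063, IPO8 at 0.10, TMSB10 at 0.0092, PPIA at 0.0076 and RPL13A at 0.0094. With the GC content and length correction, with or without the replicate block, TAGLN was at 0.0945, TMSB10 at 0.067 and RPL13A at 0.015. Without each library in turn, VCL ran from -0.032 to 0.0091 (turned without control replicate 4) and TAGLN from -0.12 to 0.028 (turned without control replicate 2, 3 or 4 or SB-treated replicate 1). The turns with ACTB equalised follow from dividing by ACTB, and the cause of the others was not tested. RHOA did not pass with the GC content and length correction and the replicate block together (-0.10).

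The RT-qPCR genes moved with the denominator, by construction, since each denominator has its own change. The log2 difference of PLA2G4C was 1.01 with ACTB, 0.66 with ACTG1, 0.67 with TAGLN2, 1.25 with TPM1, 1.18 with TPM2 and 0.57 with SRF. That of ACHE was 1.33 with ACTB and 0.98, 0.99, 1.57, 1.5 and 0.90 in the same order. For PLA2G15 it was 0.78 with ACTB and 0.43, 0.44, 1.02, 0.95 and 0.35 in that order, with 0.64 for VCL and 0.64 for TAGLN. For PTGS2 it was 1.18 with ACTB, 0.82 with ACTG1, 0.83 with TAGLN2, 1.42 with TPM1 and 0.74 with SRF.

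The width of the 95% interval of the log2 fold change also moved. With ACTB equalised it was 0.201 for ACTG1, 0.358 for VCL, 0.199 for CNN2, 0.555 for TPM1 and 0.510 for TPM2. For TAGLN it was 0.802 with a pseudocount of 0.1, 0.870 with voom and 0.259 with the replicate block. With the GC content and length correction it was 0.122 for TAGLN2, 0.239 for CNN2, 0.291 for TPM2 and 0.117 for SRF. With that correction and the replicate block it was 0.211 for ACTB, 0.184 for TAGLN, 0.146 for TAGLN2, 0.194 for CNN2, 0.250 for TPM2 and 0.140 for SRF. Without each library in turn it ran from 0.123 to 0.432 for ACTB, 0.122 to 0.513 for ACTG1, 0.247 to 0.493 for TAGLN, 0.113 to 0.277 for TAGLN2, 0.147 to 0.461 for CNN2, 0.119 to 0.261 for TPM1 and 0.122 to 0.284 for SRF. Among the fits that left out 1 library, the lowest width of each of these 7 genes was that without control replicate 1. The cause of these changes of width was not tested.

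The replicate numbers do not say that libraries were paired. Correlations of same-numbered libraries, after removal of the group means, were 0.38, 0.327, 0.173 and -0.16, with a mean of 0.18 against -0.05 for other pairs, and 4 of 8 libraries correlated best with their own number. A fit that took the replicate number as a block called 4885 genes higher and 4894 lower, and in it ACTB did not pass (limma adjusted p = 0.0542, against 2.48e-05 to 0.608 over its alternatives).

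Depth limits TAGLN, with 45 to 83 reads a library, more than the other genes. The label HepG2 goes against the marker levels, read mapping of the actin copies is not given, and 4 libraries a group from cultures not stated to be separate limit what the p-values cover.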
